A study of Mus musculus with 12 samples.

Results

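The 10 genes described here encode the NF-kappaB transcription factor subunits (Nfkb1, Nfkb2, Rel, Rela and Relb) and 5 proteins of the inhibitor of NF-kappaB (IkB) family (Nfkbia, Nfkbib, Nfkbie, Nfkbid and Nfkbiz). They are the rows with these gene symbols among 55487 features measured by RNA-seq in mouse natural killer (NK) cells, the lymphocytes that kill target cells and secrete interferon gamma. All 10 passed the filter on low values that left 12364 genes for testing. The 12 samples formed 3 groups of 4: unstimulated cells, and cells given anti-NK1.1 (an antibody against an activating NK receptor) for 6 h and sorted as negative (YFP-) or positive (YFP+) for a fluorescent reporter. Every sample, the unstimulated ones included, came from NK cells of the strain B6.129S4-Ifngtm3.1Lky/J with the genotype mut/mut, a reporter of the interferon gamma gene, and carried the label HD IL-15, which the series title explains as priming with interleukin 15. The labels give no time or sort for the unstimulated samples and no age for the mice. The YFP- and YFP+ groups are fractions of stimulated cells and not separate treatments, and the labels do not say whether the unstimulated cells passed through a sorter. Samples within a group are labelled f2, m2, m3 and m4. The labels do not say that these are separate animals or cultures, so p-values measure the spread between samples, which may be partly technical.

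NF-kappaB proteins act as dimers of 5 related subunits. Rela, Rel and Relb carry domains that activate transcription, while Nfkb1 and Nfkb2 encode precursors that are cut to short DNA-binding subunits. IkB alpha, beta and epsilon (Nfkbia, Nfkbib and Nfkbie) hold dimers in the cytoplasm until IkB kinase (IKK) marks them for destruction, and renewed synthesis of IkB alpha from its own NF-kappaB-driven promoter is the textbook feedback that ends a response. The atypical members IkBNS (Nfkbid) and IkB zeta (Nfkbiz) sit in the nucleus and change which target genes are read. In NK cells, activating receptors that signal through immunoreceptor adaptors are among the inputs to IKK.

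The libraries held between 32.1 and 54.2 M reads (M, mega). Levels are given as reads per M of a library's reads (CPM), on which scale 3 reads were worth 0.0553 to 0.0933, and every member had at least 214 reads in every library. Ifng, the gene of the reporter, averaged 3.92 ± 0.239 CPM in unstimulated, 45.8 ± 7.37 CPM in the YFP- group and 329 ± 18.2 CPM in the YFP+ group (SD, n = 4), in the order of the labels. Summed levels of 12 NK cell markers spanned 19597 to 23605 CPM without stimulation, 22523 to 27309 CPM for YFP- and 31739 to 44126 CPM for YFP+ cells. Gzmb (granzyme B) carried the rise of that sum, at 5121 to 6693 CPM without stimulation and 21073 to 28337 CPM for YFP+ cells. Without stimulation Gzma was the larger part, at 7843 to 9334 CPM. Several other markers of the list, Gzma and Eomes among them, were lower in YFP+ than in unstimulated libraries without overlap. Klrb1c, the gene of NK1.1 itself, stood at 290.2 to 327 CPM without stimulation, 57.6 to 86.6 CPM for YFP- and 3.70 to 8.97 CPM for YFP+ cells, and Ncr1 at 244 to 249, 182 to 245 and 105 to 138 CPM. Summed levels of 8 T cell markers were 52.8 to 113, 68.1 to 93.9 and 63.9 to 96.1 CPM, those of 5 B cell markers 1.78 to 4.19, 0.922 to 2.86 and 0.470 to 1.37 CPM, and those of 8 myeloid markers, mostly Fcer1g, which NK cells share, 1208 to 1462, 998 to 1193 and 863 to 1111 CPM. Within the T cell list, Cd3g (11.7 to 79.4 CPM) and Cd3d (7.25 to 25.9 CPM over all libraries) made up most of the unstimulated sum, and Trac stood at 6.83 to 8.47 CPM without stimulation, 27.6 to 41.9 CPM for YFP- and 40.4 to 54.5 CPM for YFP+ cells. The part of cells other than NK cells in the results was not tested. The markers taken as defining for T and myeloid cells were near or at 0, with Cd3e at most 1.49, Cd5 at most 1.12, Csf1r at most 0.316 and Cd14 at most 1.92 CPM in any library. Ribosomal RNA-like features took 27.4 to 35.3% of reads without stimulation, 15.9 to 30.3% for YFP- and 13.7 to 29.8% for YFP+ cells. The m3 libraries of both stimulated groups held the highest of those shares, and they were also the lowest of their group for 10 of the 10 members in YFP- and for 8 of the 10 in YFP+ samples. This was not particular to the members. The median log2 CPM of all tested genes was also lowest in m3, at 3.46 beside 3.64 to 3.82 in YFP- and 3.25 beside 3.34 to 3.58 in YFP+ samples. The share of all genes lowest in m3 was not counted. In these bulk samples fewer cells with a transcript and less of it per cell cannot be told apart.

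The promoters of several members hold copies of the DNA element that NF-kappaB itself binds. The stretches around these copies are shown whatever the change of the gene with stimulation. RefSeq promoters on GRCm38.p6 were found for 7 of the 10 members, with 11 start sites in all, and the 250 bases before each start were searched on both strands for the kappaB consensus. It was matched in 7 of the 11 promoters, belonging to 5 members, against 3.90% of all 32851 promoters in the table. The stretches without annotated exon sequence are given 5′ to 3′ on the strand of the gene, with matched bases in capitals.
Nfkbia, chr12:55492648-55492716, minus strand: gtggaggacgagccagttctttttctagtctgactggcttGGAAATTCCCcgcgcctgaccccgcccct
Nfkbie, chr17:45555554-45555643, plus strand: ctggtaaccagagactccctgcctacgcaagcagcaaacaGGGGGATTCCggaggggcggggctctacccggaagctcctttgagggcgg
Nfkbid, the middle of 3 starts, chr7:30422156-30422274, plus strand: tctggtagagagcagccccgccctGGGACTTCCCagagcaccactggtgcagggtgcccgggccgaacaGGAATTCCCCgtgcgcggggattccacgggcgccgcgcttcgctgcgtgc
Rel, chr11:23771011-23771101, minus strand: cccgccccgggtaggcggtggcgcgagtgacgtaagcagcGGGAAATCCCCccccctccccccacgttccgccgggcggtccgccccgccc
The Nfkbia match spans positions -29 to -20 from the start site, with the consensus on the opposite strand. Nfkbid holds 2 separate matches, a feature of 0.83% of all promoters when matches of any overlap are counted, and the Rel stretch holds 3 overlapping matches that form 1 site. At Nfkb2, matches such as GGGAATTCCC (positions -39 to -30) and GGGGCTTTCC (-11 to -2) lie within annotated exons of other transcripts. No match stood in the searched windows of Rela, Nfkbib and the other two starts of Nfkbid, which says only that these letters are not in those windows. A match is a description of sequence and was not tested for binding or for a link to the changes in level.

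Stimulation was accompanied by higher transcript levels of almost the whole family. In YFP- samples 9 of the 10 members rose against unstimulated samples and none fell, where 30.2% of all tested genes rose, 20.9% fell and 51.1% changed in either direction (limma, adjusted p under 0.05). In YFP+ samples 8 of the 10 rose and none fell, where 27.5% of all tested genes rose, 33.3% fell and 60.8% changed. Between the stimulated fractions, 5 of the 10 were lower in YFP+ than in YFP- samples and none was higher, where 18.5% of tested genes were lower, 3.28% were higher and 21.8% changed in either direction. The median log2 fold change of the members was 2.66 for YFP- over unstimulated, 1.84 for YFP+ over unstimulated and -0.71 for YFP+ over YFP-, beside 0.14, -0.03 and -0.19 over all tested genes. The 3 comparisons share samples in pairs and are not independent of one another. With ribosomal RNA-like features left out of the totals, the counts were 9, 8 and 6 members. That none was higher in YFP+ than in YFP- samples depended on the scale. With each library centred on its median, or with trimmed-mean scaling, 4 members were lower and 1, Nfkbib, was higher. With voom weights 5 were lower and 1, again Nfkbib, was higher.

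**Figure D1:**
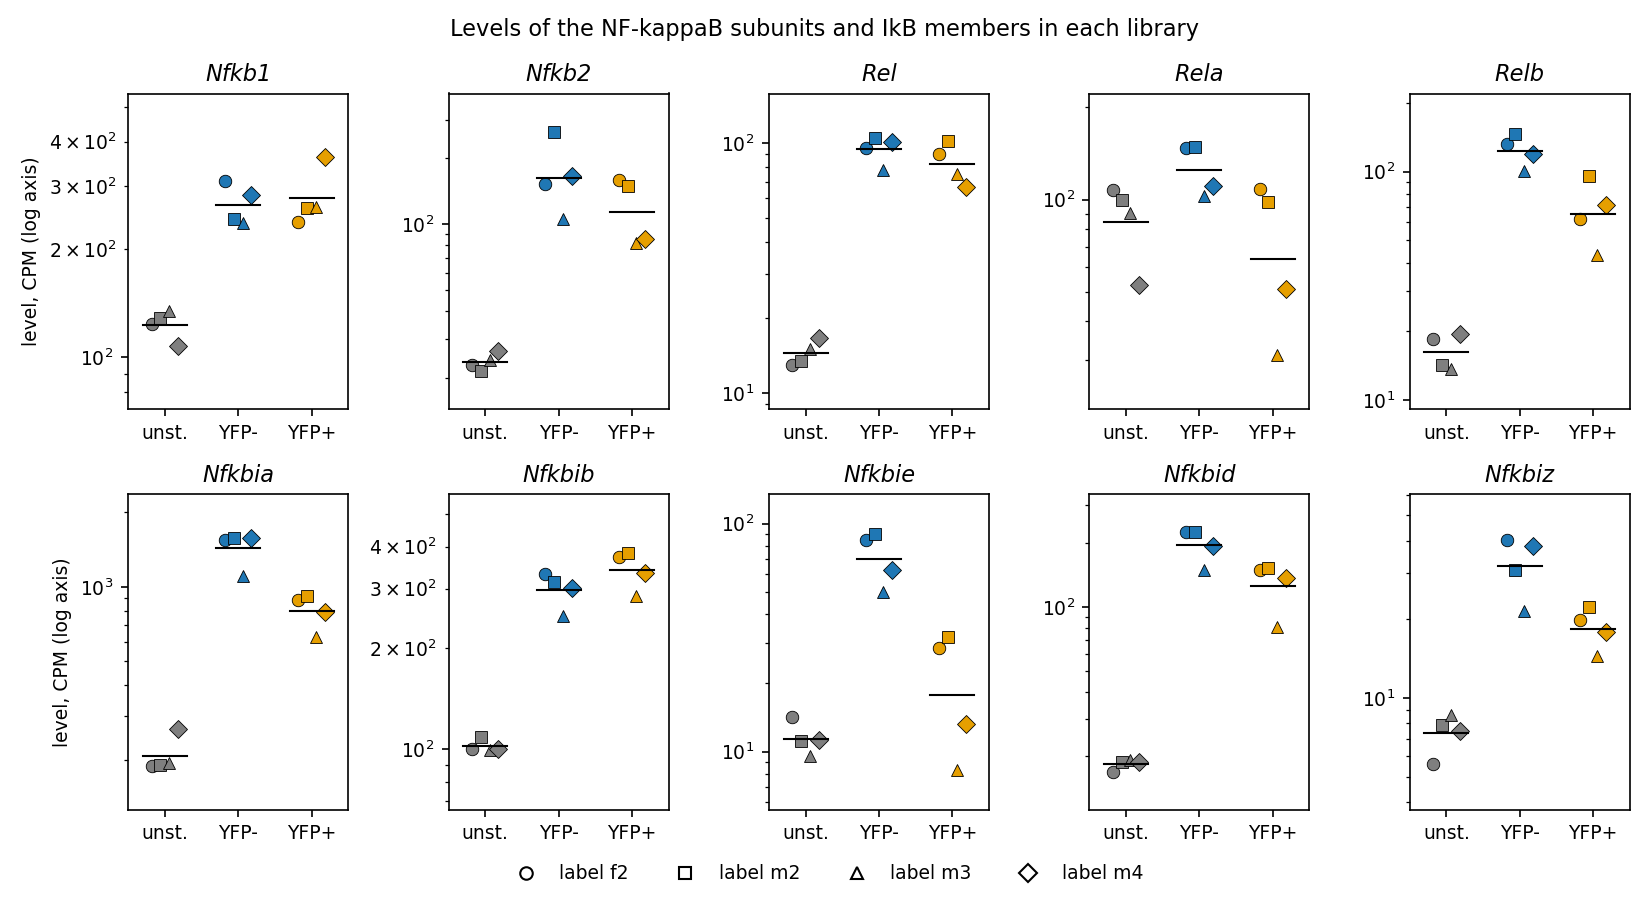
Level of each member in CPM (log axis, a different range in each panel) in the unstimulated (grey), YFP- (blue) and YFP+ (orange) samples, 1 point per library with its label as the marker shape and a line at the mean of the log2 values. For 9 of the 10 genes all YFP- points lie above all unstimulated points, Rela being the exception.

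Rela, the activating subunit of the most abundant dimer in many cell types (chromosome 19, 5637483 to 5648130, plus strand), was the 1 member that passed the test in neither stimulated group. Its level was 108, 99.8, 90.5 and 52.4 CPM in the unstimulated samples f2, m2, m3 and m4, and all later series of 4 values keep this order. The YFP- samples had 147, 148, 102 and 110.5 CPM, and the YFP+ samples 108, 98.1, 31.0 and 51.0 CPM. All 3 groups overlapped, with low values in the unstimulated m4 library and in the YFP+ libraries m3 and m4. The log2 fold change was 0.57 for YFP- over unstimulated (95% interval -0.18 to 1.32, limma adjusted p = 0.189) and -0.40 for YFP+ over unstimulated (-1.15 to 0.35, adjusted p = 0.338). It was -0.97 for YFP+ over YFP- (-1.72 to -0.22, adjusted p = 0.0636), lower in 4 of 4 labels, and this comparison crossed the threshold with ribosomal RNA-like features left out (adjusted p = 0.0253) and with quantile normalization (adjusted p = 0.0361). The YFP- difference crossed it (adjusted p = 0.0321) when the YFP+ samples were left out of the fit.

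Rel, which encodes the lymphocyte-enriched subunit c-Rel (chromosome 11, 23736847 to 23770970, minus strand), rose in both stimulated groups. It was at 12.9, 13.4, 15.0 and 16.5 CPM in unstimulated samples, at 95.7, 105, 77.6 and 101 CPM in YFP- and at 90.4, 102, 75.4 and 66.7 CPM in YFP+ samples. Every stimulated library lay above every unstimulated one, while the 2 stimulated groups overlapped. The change over unstimulated samples was 6.54-fold in YFP- (log2 2.71, SE 0.15, adjusted p = 3.7e-08) and 5.73-fold in YFP+ samples (log2 2.52, SE 0.15, adjusted p = 1.93e-08). Between the fractions the log2 difference was -0.19 (95% interval -0.52 to 0.14, adjusted p = 0.409), and its sign turned to 0.07 when each library was centred on its median and to 0.0055 with voom weights.

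Relb, the activating partner of the Nfkb2 product in the non-canonical branch (chromosome 7, 19606217 to 19629438, minus strand), had the largest rise of the subunits in YFP- samples and a smaller one in YFP+ samples. Its levels were 18.5, 14.3, 13.7 and 19.5 CPM in unstimulated, 133, 147, 101 and 119 CPM in YFP- and 62.0, 95.8, 43.4 and 71.2 CPM in YFP+ samples. None of the 3 groups overlapped, and YFP+ lay in the middle. The change over unstimulated samples was 7.58-fold in YFP- (log2 2.92, SE 0.22, adjusted p = 3.04e-07) and 4.01-fold in YFP+ samples (log2 2.005, SE 0.22, adjusted p = 3.03e-06). Relb was lower in YFP+ than in YFP- samples by a log2 difference of -0.92 (SE 0.22, adjusted p = 0.00832), in 4 of 4 labels. That call was lost when the f2 libraries were left out (log2 -0.86, adjusted p = 0.0604) and when no filter on low values was used (adjusted p = 0.0791).

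Nfkb2, which encodes the precursor of the Relb partner (chromosome 19, 46304320 to 46312385, plus strand), varied more among stimulated libraries than the other subunits that rose. It was at 22.7, 21.5, 24.1 and 26.3 CPM in unstimulated samples, at 153, 263, 105 and 165 CPM in YFP- and at 159, 149.7, 81.7 and 85.5 CPM in YFP+ samples. Both stimulated groups lay above the unstimulated group and overlapped each other, with m2 the highest YFP- library and m3 the lowest in both. The rise was 6.88-fold in YFP- (log2 2.78, SE 0.27, adjusted p = 2.84e-06) and 4.81-fold in YFP+ samples (log2 2.27, SE 0.27, adjusted p = 6.96e-06), and the fractions differed by log2 -0.52 (95% interval -1.09 to 0.06, adjusted p = 0.192). Of its exon bases, 531 are shared with the antisense transcript AC114539.1 (at most 11.2 CPM) and 299 with Psd (at most 6.95 CPM). The library kit does not mark strand and no strand setting is given for the counting, so reads from shared bases cannot be told apart.

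Nfkb1, which encodes the precursor of the commonest Rela partner (chromosome 3, 135584655 to 135691547, minus strand), had the smallest rise of the members that rose in both groups. It was at 124, 128.5, 135 and 107 CPM in unstimulated samples, at 311, 243, 236 and 283 CPM in YFP- and at 238, 262, 263 and 363 CPM in YFP+ samples. The stimulated groups overlapped each other and lay wholly above the unstimulated group. The change was 2.17-fold in YFP- (log2 1.11, SE 0.14, adjusted p = 3.15e-05) and 2.26-fold in YFP+ samples (log2 1.17, SE 0.14, adjusted p = 9.46e-06). The fractions differed by log2 0.06 (95% interval -0.25 to 0.37, adjusted p = 0.8), a sign that turned to -0.04 without the m4 libraries.

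Among the cytoplasmic inhibitors, Nfkbia (chromosome 12, 55489410 to 55492647, minus strand) was the most abundant member and differed between all 3 groups. Its level was 188, 189.9, 193 and 266 CPM in unstimulated, 1544, 1581, 1100.4 and 1577 CPM in YFP- and 880.4, 917, 626 and 791 CPM in YFP+ samples. The groups did not overlap, and YFP- was the highest. Nfkbia rose 6.93-fold in YFP- (log2 2.79, SE 0.16, adjusted p = 3.79e-08) and 3.84-fold in YFP+ samples (log2 1.94, SE 0.16, adjusted p = 2.74e-07). It was lower in YFP+ than in YFP- samples by log2 -0.85 (SE 0.16, adjusted p = 0.00226), in 4 of 4 labels, and adjusted p lay between 0.000521 and 0.0349 under the alternatives tried. Of the 5 members lower in YFP+ than in YFP- samples, Nfkbie was the 1 whose difference exceeded a log2 value of 1.

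Nfkbib, encoding IkB beta (chromosome 7, 28758251 to 28767512, minus strand), rose in both stimulated groups without a YFP- maximum. It was at 100.1, 109, 99.3 and 100.3 CPM in unstimulated samples, at 331, 314, 249 and 300.5 CPM in YFP- and at 372, 382, 285 and 334 CPM in YFP+ samples. The rise over unstimulated samples was 2.91-fold in YFP- (log2 1.54, SE 0.12, adjusted p = 5.16e-07) and 3.34-fold in YFP+ samples (log2 1.74, SE 0.12, adjusted p = 5.63e-08). The stimulated groups overlapped, but the YFP+ library was the higher in 4 of 4 labels, with a log2 difference of 0.20 (95% interval -0.06 to 0.46, adjusted p = 0.269). This difference was called with median centring (log2 0.46, adjusted p = 0.00209), trimmed-mean scaling (0.39, adjusted p = 0.00585) and voom weights (0.39, adjusted p = 0.00407). Nfkbib shares 314 exon bases with Ccer2 (at most 0.102 CPM) and 42 with Sirt2 (57.5 to 130 CPM), both on the other strand.

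Nfkbie, encoding IkB epsilon (chromosome 17, 45555703 to 45563169, plus strand), had the largest difference of the members between the stimulated fractions. Its levels were 14.2, 11.2, 9.54 and 11.2 CPM in unstimulated, 84.8, 89.8, 50.3 and 62.6 CPM in YFP- and 28.3, 31.9, 8.34 and 13.2 CPM in YFP+ samples. The YFP- libraries lay above all others, and the YFP+ libraries m3 and m4 lay within the unstimulated range or below it, whereas f2 and m2 lay above that range. Nfkbie rose 6.14-fold in YFP- samples (log2 2.62, SE 0.36, adjusted p = 5.06e-05). In YFP+ samples the log2 difference from unstimulated was 0.64 (95% interval -0.13 to 1.41, adjusted p = 0.137). That value became a call without the m3 libraries (log2 0.92, adjusted p = 0.0215), without the YFP+ m3 library alone (log2 1.003, adjusted p = 0.00737), with median centring (0.76, adjusted p = 0.0369) and with quantile normalization (0.72, adjusted p = 0.039). Nfkbie was 3.94-fold lower in YFP+ than in YFP- samples (log2 -1.98, SE 0.36, adjusted p = 0.00154), and adjusted p ranged from 0.000134 to 0.0316 over the alternatives.

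The nuclear members rose in both groups and were lower in YFP+ than in YFP- samples. Nfkbid (chromosome 7, 30421732 to 30428746, plus strand) was at 16.9, 18.9, 19.3 and 18.8 CPM in unstimulated, 225, 225, 148 and 192 CPM in YFP- and 148, 151, 80.6 and 137 CPM in YFP+ samples. Its 10.6-fold rise in YFP- samples was the largest of the 10 members (log2 3.40, SE 0.20, adjusted p = 3.72e-08), and it rose 6.81-fold in YFP+ samples (log2 2.77, SE 0.20, adjusted p = 6.26e-08). The lower level in YFP+ than in YFP- samples (log2 -0.63, SE 0.20, adjusted p = 0.0338) was seen in 4 of 4 labels, but the groups overlapped. The call was lost without the f2, m2 or m4 libraries (adjusted p = 0.0887, 0.105 and 0.118), without the YFP+ m3 library (log2 -0.42, adjusted p = 0.06), with median centring (-0.37, adjusted p = 0.0751) and with trimmed-mean scaling (-0.44, adjusted p = 0.05, not under the threshold). It was also lost when the unstimulated samples were left out of the fit (adjusted p = 0.0839), without the trend in eBayes (adjusted p = 0.05) and without the filter (adjusted p = 0.202).

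Nfkbiz (chromosome 16, 55811375 to 55838899, minus strand) was the least abundant member, at 5.61, 7.92, 8.61 and 7.49 CPM in unstimulated, 40.2, 31.0, 21.6 and 38.2 CPM in YFP- and 19.8, 22.3, 14.5 and 17.9 CPM in YFP+ samples. The unstimulated libraries lay below all stimulated ones, and only the m3 library of the YFP- group reached into the YFP+ range. Nfkbiz rose 4.35-fold in YFP- (log2 2.12, SE 0.21, adjusted p = 3.7e-06) and 2.51-fold in YFP+ samples (log2 1.33, SE 0.21, adjusted p = 9.88e-05). It was lower in YFP+ than in YFP- samples by log2 -0.79 (SE 0.21, adjusted p = 0.0165), a call that was lost without the f2, m2 or m4 libraries (adjusted p = 0.0603, 0.0512 and 0.13) and without the filter (adjusted p = 0.111).

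Bcl3, a nuclear IkB protein outside the 10, was high in YFP- samples, while its unstimulated and YFP+ ranges overlapped. It was at 8.21, 8.58, 9.26 and 7.86 CPM in unstimulated, 29.8, 25.7, 20.6 and 20.4 CPM in YFP- and 6.34, 8.81, 7.87 and 7.37 CPM in YFP+ samples. It rose by log2 1.49 (SE 0.16, adjusted p = 5.87e-06) in YFP- samples and was lower by log2 -1.66 in YFP+ than in YFP- samples (SE 0.16, adjusted p = 1.57e-05). For YFP+ over unstimulated the log2 difference was -0.17 (95% interval -0.50 to 0.17, adjusted p = 0.383), with a sign that turned to 0.028 under quantile normalization.

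**Figure D2:**
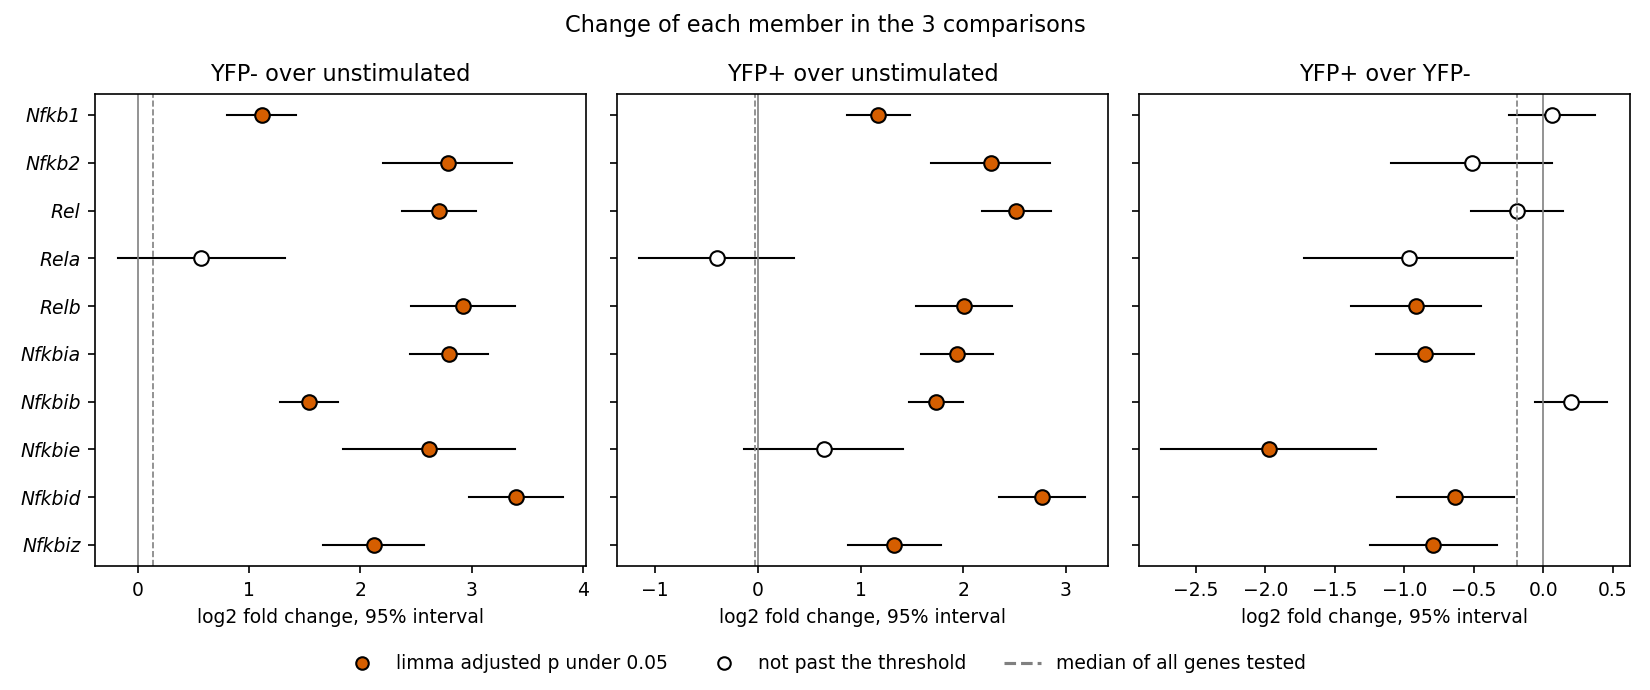
Log2 fold change of each member (points) with its 95% interval (lines) from limma in the 3 comparisons, n = 4 samples a group; filled points passed an adjusted p under 0.05, and dashed lines mark the median of all 12364 tested genes. In the panel of YFP+ over YFP-, Nfkbie lies farthest to the left at -1.98, and Nfkb1, Nfkb2, Rel and Nfkbib have intervals that include 0.

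Read as orders of the 3 groups, 8 of the 10 members rose in both stimulated groups, a pattern of 23.6% of tested genes. A YFP- maximum, that is a rise over unstimulated samples and a lower level in YFP+ samples with both calls made, held for Relb, Nfkbia, Nfkbie, Nfkbid and Nfkbiz, 5 of the 10, where 2.05% of tested genes (254 of 12364) met both calls. Levels without any overlap were higher in YFP- than unstimulated samples for 9 members, beside 30.9% of tested genes, and higher in YFP+ than unstimulated samples for 8, beside 24% of tested genes. Levels without overlap were lower in YFP+ than in YFP- samples for 3 members, Relb, Nfkbia and Nfkbie, beside 17.8% of tested genes. The scale bears on the last comparison. On the deposited scale 15.1% of all calls between the fractions were higher in YFP+ samples, against 50.2% after each library was centred on its median, which moved the median of all genes from -0.19 to 0.07. Relb, Nfkbia, Nfkbie and Nfkbiz were lower and called in all 6 scalings, with log2 differences from -0.93 to -0.66 for Relb, -0.86 to -0.59 for Nfkbia, -1.99 to -1.72 for Nfkbie and -0.80 to -0.53 for Nfkbiz. For YFP- over unstimulated, 59.1% of calls were higher on the deposited scale and 47.2% with ribosomal RNA-like features left out, and the 9 members that rose were called in all 6 scalings.

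Levels of different genes were compared per kilobase (kb) of merged exon length. This length joins the exons of all annotated transcripts of a gene, so the order of the genes depends on it. In unstimulated samples Nfkbia was highest at 130 ± 23.6 CPM per kb (SD, n = 4), followed by Nfkbib at 47.1 ± 2.14, Rela at 28.5 ± 7.98, Nfkb1 at 10.2 ± 0.973 and Nfkbid at 7.86 ± 0.459 CPM per kb. Nfkb2, Relb and Nfkbie followed at 5.17, 4.25 and 3.78 CPM per kb and overlapped their neighbours, and Rel (1.94) and Nfkbiz (1.48) came last. In YFP- samples Nfkbia (901 ± 145 CPM per kb), Nfkbib (138 ± 16.3) and Nfkbid (84.2 ± 15.5) led without overlap, ahead of Rela (41.3), Nfkb2 (37.4), Relb (32.1), Nfkbie (23.6) and Nfkb1 (22.2), of which each overlapped the next. Rel (12.7) and Nfkbiz (6.53) were again the lowest. In YFP+ samples Nfkbia (499 ± 80.5 CPM per kb) and Nfkbib (158 ± 20.3) led without overlap, and each of the other eight overlapped the next in order, from Nfkbid (55.1) through Nfkb2 (26.0), Rela (23.5), Nfkb1 (23.3), Relb (17.5), Rel (11.2) and Nfkbie (6.72) to Nfkbiz (3.71).

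The makeup of the subunit transcripts differed between unstimulated and stimulated libraries. Of the summed level per kb of the 5 subunits, Rela made up 55.95 ± 8.33% without stimulation (43.8 to 61.8%), 28.4 ± 2.42% in the YFP- group (25.8 to 31.1%) and 21.9 ± 7.14% in the YFP+ group (14.2 to 29.9%). The stimulated libraries all lay below the unstimulated ones and overlapped each other. In the same order of groups, the share of Relb was 8.76 ± 2.86%, 22.1 ± 0.749% and 17.2 ± 3.10%, and that of Rel 4.0 ± 1.18%, 8.80 ± 0.811% and 11.3 ± 2.04%. Nfkb2 made up 10.6 ± 2.83%, 25.05 ± 5.35% and 25.2 ± 3.87%, while Nfkb1 made up 20.7 ± 2.09%, 15.6 ± 2.84% and 24.4 ± 8.42%. The summed level of the 5 subunits was 50.1 ± 7.77, 146 ± 27.4 and 101.5 ± 24.6 CPM per kb. Shares are taken within a library and do not depend on its scaling, but they do depend on the merged exon length. That length was 12061 bases for Nfkb1, 7466 for Rel and 3072 for Rela. In CPM, without this division, Nfkb1 averaged 124 and Rela 87.6 in unstimulated samples. The shares describe transcripts and not protein.

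Within the IkB transcripts the balance of Nfkbia and Nfkbib separated the stimulated fractions. Of the summed level per kb of the 5 IkB members, Nfkbia made up 68.0 ± 3.81% without stimulation, 78.1 ± 1.17% in the YFP- group and 69.1 ± 0.250% in the YFP+ group, and Nfkbib 25.03 ± 3.10%, 12.0 ± 0.784% and 21.99 ± 0.974%. The ratio of Nfkbia to Nfkbib CPM per kb in the same library was 2.34 to 3.58 without stimulation, 5.96 to 7.07 for YFP- and 2.96 to 3.23 for YFP+ cells. All YFP- libraries lay above all others in this ratio. The YFP+ libraries lay inside the unstimulated range only because of the unstimulated m4 library, where Nfkbia stood at 266 CPM. They lay above the unstimulated libraries f2, m2 and m3. Nfkbie made up 2.01 ± 0.450%, 2.03 ± 0.312% and 0.885 ± 0.393%, with overlapping shares in unstimulated and YFP- samples and a lower one in every YFP+ library. Nfkbid made up 4.17 ± 0.458%, 7.29 ± 0.485% and 7.53 ± 0.943%, and Nfkbiz less than 1% throughout. The ratio of Nfkbia to Rela CPM per kb averaged 4.67 in unstimulated samples (3.33 to 9.70), 21.9 in YFP- (20.0 to 27.2) and 23.7 in YFP+ samples (15.5 to 38.5), as geometric means, and overlapped between the fractions. These ratios were examined after the levels had been seen and carry no test.

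**Figure D3:**
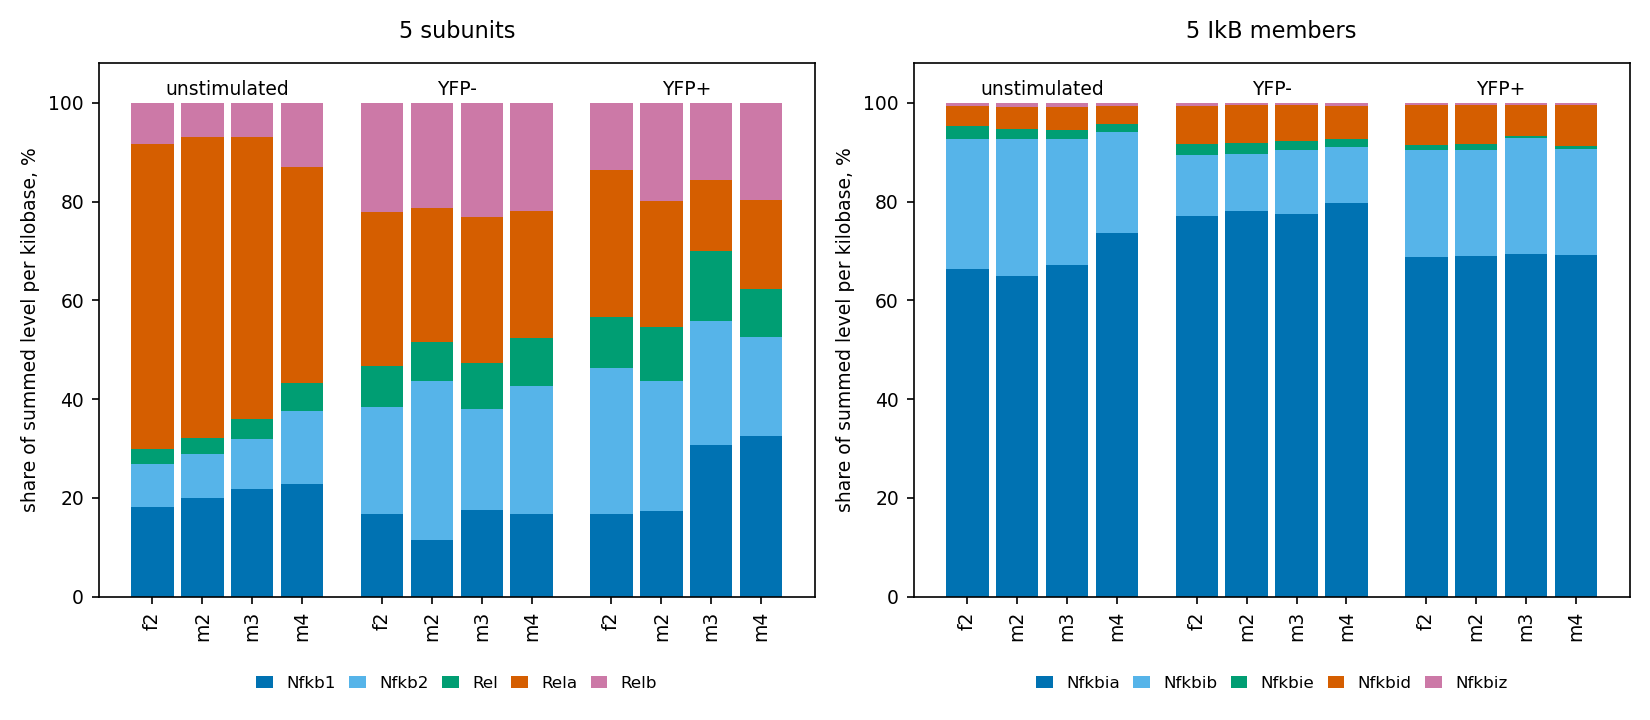
Share of each gene in the summed level per kilobase of the 5 subunits (left) and of the 5 IkB members (right), in percent, with 1 bar per library. The Rela segment spans 43.8 to 61.8% in unstimulated and 14.2 to 31.1% in stimulated libraries, and the Nfkbib segment is narrowest in the YFP- libraries.

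The list of IKK and upstream kinases, with scaffold and partner genes such as Ikbkg and Tab1, had medians nearer to 0 than the members. Of 11 IKK and upstream kinase genes, 4 rose and 1 fell in YFP- samples (median log2 change 0.36), 2 rose and 4 fell in YFP+ samples (-0.25), and 3 were lower and none higher in YFP+ than in YFP- samples (-0.30). Of all tested genes 30.2% rose and 20.9% fell in YFP- samples, 27.5% rose and 33.3% fell in YFP+ samples, and 18.5% were lower and 3.28% higher in YFP+ than in YFP- samples, so most of these kinase counts lay near the background. Ikbke, an IKK-related kinase, averaged 5.93 CPM in unstimulated, 19.6 CPM in YFP- and 4.44 CPM in YFP+ samples, and was lower in YFP+ than in YFP- samples by log2 -2.17 (SE 0.31, adjusted p = 0.000312). Ikbkg, the scaffold NEMO, rose by log2 0.87 in YFP- samples (SE 0.28, adjusted p = 0.0184), as did Tab1 by 1.45 (SE 0.48, adjusted p = 0.0217), a partner of the kinase encoded by Map3k7. Chuk, the catalytic subunit IKK alpha of the non-canonical branch, rose by log2 1.19 in YFP+ samples (SE 0.18, adjusted p = 6.15e-05), and Map3k7 by 0.47 (SE 0.18, adjusted p = 0.0363). Chuk was also called higher in YFP- than in unstimulated samples (log2 0.81), and its difference between the fractions was not called (log2 0.38). Tab2 averaged 104, 64.2 and 32.5 CPM in unstimulated, YFP- and YFP+ samples and fell by log2 -0.69 and -1.67 against unstimulated (adjusted p = 0.00125 and 3.21e-07). Tbk1 and Map3k8 fell in YFP+ samples by log2 -0.82 and -0.97 (adjusted p = 0.000836 and 0.0186), and Map3k8 was also lower in YFP+ than in YFP- samples (log2 -1.34, adjusted p = 0.00968). Several of these calls were lost with fewer libraries or without the filter. Leaving out a label removed its library from every group. Ikbkg was not called without the f2, m2 or m4 libraries (log2 0.77 to 0.88, adjusted p = 0.0569 to 0.0659) or without the filter (0.139). Tab1 was not called without m2, m4 or the unstimulated m4 library (0.0572 to 0.0869) or the filter (0.183). Map3k7 was not called without m2, m3, m4 or the YFP+ m3 library (0.0773 to 0.138), without the YFP- samples in the fit (0.0653), without the filter (0.145) or with ribosomal RNA-like features left out (log2 0.28, adjusted p = 0.288). Map3k8 lost its YFP+ call against unstimulated without m3 or m4 (0.0696 and 0.144) or the filter (0.137), and its call against YFP- samples without m4 (0.0825) or the filter (0.101).

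Of 19 adaptor and ubiquitin ligase genes upstream of IKK, 9 rose and 3 fell in YFP- samples (median log2 change 0.45), 3 rose and 7 fell in YFP+ samples (-0.12), and 7 were lower and none higher in YFP+ than in YFP- samples (-0.53). Beside the shares of all tested genes (30.2% and 20.9%, 27.5% and 33.3%, and 18.5% lower), the counts of falls in both stimulated groups lay near the background. The receptor-associated factors Traf5, Traf1 and Traf2 rose by log2 1.82, 1.47 and 1.24 in YFP- samples (adjusted p = 0.00091, 4.66e-05 and 0.00277). In YFP+ samples Traf5, Traf3 (a brake on the non-canonical branch) and Traf1 rose by log2 2.24, 0.98 and 0.74 (adjusted p = 0.000107, 2.81e-05 and 0.00542). Traf3 was also called higher in YFP- than in unstimulated samples, and its difference between the fractions was not called. Tradd, Prkcq and Ripk1 fell in both, by log2 -0.52, -0.70 and -0.79 in YFP- samples (adjusted p = 0.0116, 0.00485 and 0.000369) and by -1.47, -1.23 and -1.13 in YFP+ samples (adjusted p = 1.99e-06, 4.21e-05 and 9.28e-06). Birc3, a ubiquitin ligase, was lower in YFP+ than in YFP- samples by log2 -1.69 (SE 0.23, adjusted p = 0.000199), as were Tradd by -0.95 (adjusted p = 0.000677) and Rnf31, a subunit of the linear ubiquitin ligase, by -0.87 (adjusted p = 0.0233). Tradd in YFP- samples was not called without the m4 libraries (adjusted p = 0.0641) or the filter (0.0546), nor was Traf1 in YFP+ samples (0.0572 and 0.0519). The Rnf31 call was lost without m2, m4 or the YFP+ m3 library (0.0566 to 0.124), without the unstimulated samples in the fit (0.0602), without the filter (0.157) and with quantile normalization (0.0645).

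Of 18 negative regulators outside the IkB family 17 were tested (Irak3 had 0 to 10 reads a library), and 10 rose and 3 fell in YFP- samples (median log2 change 0.73), 7 rose and 5 fell in YFP+ samples (0.06), and 8 were lower and none higher in YFP+ than in YFP- samples (-0.56). The same shares of all tested genes (30.2% and 20.9%, 27.5% and 33.3%, and 18.5% lower) stand beside these counts, and the falls in YFP+ samples lay near the background. Tnip3, Tnip2 and Tnip1, which bind the ubiquitin-editing enzyme A20, rose by log2 4.02, 2.01 and 1.71 in YFP- samples (adjusted p = 1.89e-06, 0.000743 and 0.00202). Tnip3 and Tnip2 rose by log2 4.40 and 1.71 in YFP+ samples (adjusted p = 2.73e-07 and 0.0016), and so did Rnf11 by 1.27 (adjusted p = 1.95e-05). Rnf11 was also called higher in YFP- than in unstimulated samples (log2 1.05). Nlrc3, Pdlim2 and Commd1 fell by log2 -1.34, -0.64 and -0.49 in YFP- samples (adjusted p = 2.06e-05, 0.007 and 0.0175) and by -2.04, -0.98 and -0.76 in YFP+ samples (adjusted p = 1.88e-07, 0.000229 and 0.000839). Usp18, Zc3h12a and Sqstm1 were lower in YFP+ than in YFP- samples by log2 -1.18, -1.02 and -0.73 (adjusted p = 0.036, 0.0106 and 0.00229). Commd1 in YFP- samples was not called without the m2 libraries (log2 -0.36, adjusted p = 0.162), nor Pdlim2 without the filter (0.0508). Zc3h12a was not called without m2 or m4 (0.0503 and 0.077) or the filter (0.0858). Usp18 was not called without f2, m2 or m3 (0.081 to 0.101), the unstimulated samples (0.0689) or the filter (0.26), nor with median centring, trimmed-mean scaling, quantile normalization or voom weights (0.0734 to 0.0987).

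Of 32 textbook NF-kappaB targets 31 were tested (Ebi3 had 7 to 88 reads a library), and 26 rose and 2 fell in YFP- samples, with a median log2 change of 2.73, where 30.2% of all tested genes rose and 20.9% fell. In YFP+ samples 19 rose and 6 fell (median 1.26), where 27.5% of all tested genes rose and 33.3% fell, and against YFP- samples 3 were higher and 13 lower (median -0.67), where 3.28% of all tested genes were higher and 18.5% lower. The chemokine genes Ccl3 and Ccl4 rose by log2 7.22 and 6.18 in YFP+ samples (adjusted p = 1.08e-13 and 3.68e-12). Both were also called higher in YFP- than in unstimulated samples (log2 5.61 and 4.90). They were higher in YFP+ than in YFP- samples by log2 1.61 and 1.29 (adjusted p = 2.5e-06 and 6.78e-05), as was Tnf by 0.55 (adjusted p = 0.037). The Tnf call was lost without f2, m2 or m4 (adjusted p = 0.0672 to 0.194) and without the filter (0.165). Cd83, an activation marker, rose from 0.916 to 220 CPM in YFP- samples (log2 7.94, SE 0.48, adjusted p = 5.19e-08). It was also called higher in YFP+ than in unstimulated samples (log2 5.43). Csf2 and Cd40 were called higher in YFP- samples from unstimulated libraries at 0 to 0.151 and 0 to 0.211 CPM, so no fold is given, and Csf2 reached 13.8 CPM in YFP- and 22.1 CPM in YFP+ samples.
Targets lower in YFP+ than in YFP- samples included Cd40 (1.80 against 0.108 CPM), Cxcl10 (4.49 against 0.474 CPM, adjusted p = 0.00126) and the lymphotoxin gene Ltb (107 against 9.99 CPM, log2 -3.47, adjusted p = 1e-06). Ltb and Irf1, a transcription factor gene, fell in YFP+ samples by log2 -3.10 and -2.14 against unstimulated (adjusted p = 9.6e-08 and 0.000101). Psmb9, an immunoproteasome subunit gene, fell in both stimulated groups, by log2 -1.52 and -2.80 (adjusted p = 1.62e-06 and 2.9e-09). Ier3 fell by log2 -1.45 in YFP- samples (adjusted p = 3.4e-05) and was also called lower in YFP+ than in unstimulated samples (log2 -0.94).

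**Figure D4:**
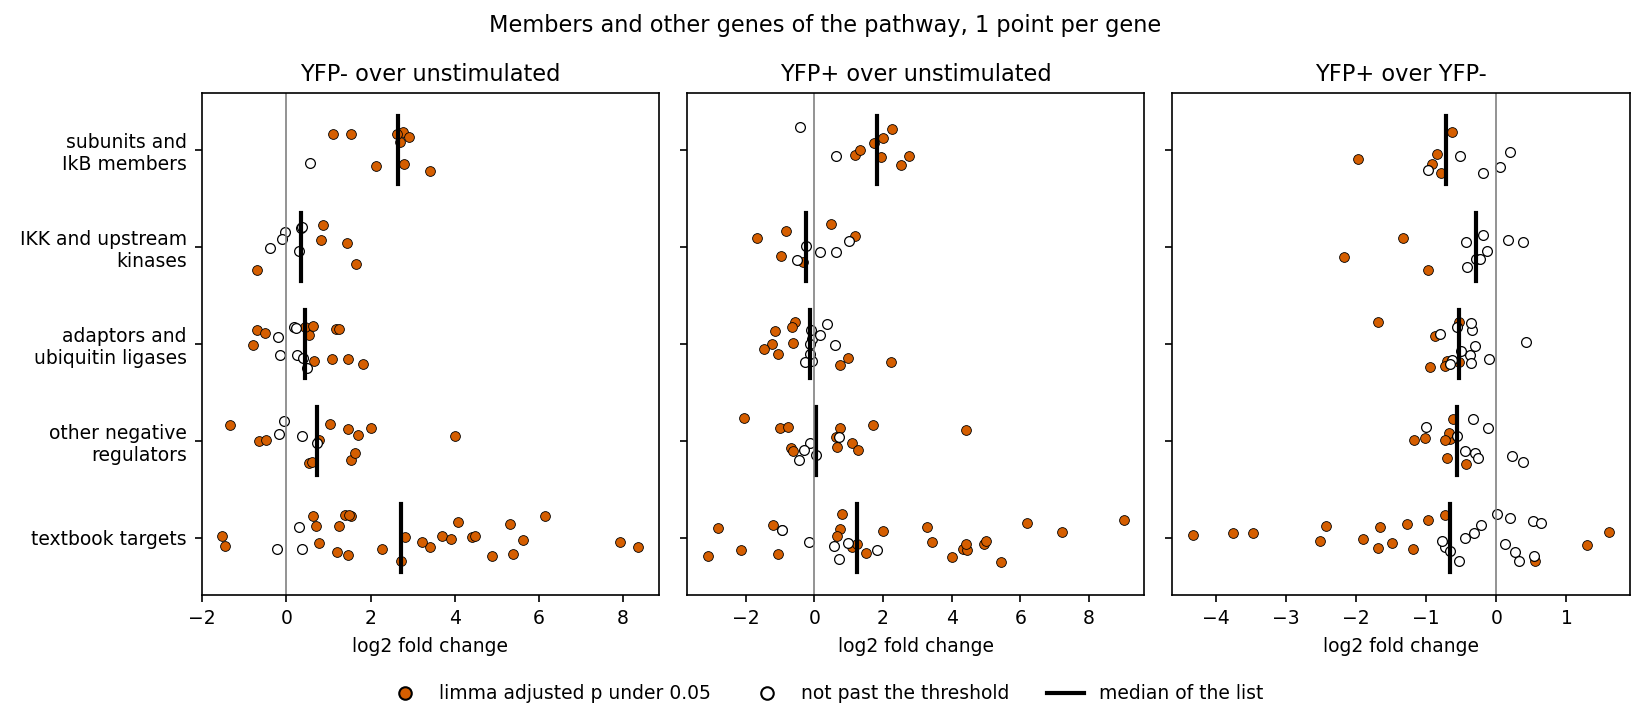
Log2 fold change of every tested gene of the family and of the 4 other pathway lists in the 3 comparisons (1 point per gene; filled points passed an adjusted p under 0.05; black bars are list medians, and the vertical scatter has no meaning). In YFP- over unstimulated the medians were 2.66 for the members and 2.73 for the textbook targets, against 0.36 to 0.73 for the other lists.

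Across the 12 samples the profiles of the members are described by Pearson correlations of log2 CPM, for which the samples share their groups and library scaling. All members but Rela and Nfkbie correlated with one another at 0.85 to 0.99. The highest correlation between 2 members was 0.99, between Relb and Nfkbia, and the lowest was 0.02, between Nfkb1 and Rela. Rela stood apart from most members, with 0.10 to Nfkbib and 0.14 to Rel, and its highest value was 0.73, to Nfkbie. Of 8063 protein coding genes compared, those most like Relb and Nfkbia were in both cases Dnajc12, a co-chaperone gene, and Gadd45b, a stress-response gene that is also on the target list. Nfkbie was most like Icam1, an adhesion molecule on the target list, and the nuclear receptor gene Nr4a1 (0.99 and 0.98). Nfkbid was most like Cd82 and Tnfsf14, Nfkbib like Prkrip1 and Plek, Rel like Coq10b and Tagap, and Nfkb2 like Pcmt1 and Cd44, all at 0.99 or above. Nfkb1 was most like Pmepa1 and Plekha3, Rela like Anapc7 and Hsdl2, and Nfkbiz like Alkbh6 and Ubtf, all at 0.98.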

How the data were processed

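The 12 samples share 1 table, deposited by the authors, whose header calls its values moderated log2 CPM (reads per mega of library reads, log2). Per the submitters' processing notes, bcl2fastq, STAR 2.7.9a, Subread, featureCounts 2.0.3 and GRCm38 were used. Of 55774 lines, 287 repeats were dropped. Whole reads and library totals were recovered from the deposited values, within 0.01 read for 100% of values, with a prior of 0.5 reads scaled to the library, which shrinks changes of very low genes. Floors cover counting error only.

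The 12364 genes above a log2 CPM of 0 in 4 or more samples were fitted in limma 3.58.1 (R 4.3.3) over the 12 samples with 1 coefficient per group and eBayes with an intensity trend, and Benjamini-Hochberg adjusted p-values under 0.05 were called. The fit was tested on simulated reads that had the same spread setting for all genes and no differences between labels. With a log2 change of 1 set in 100 genes of the YFP+ group, 87 were called against unstimulated and 89 against YFP- samples. Of 207 genes called in all against unstimulated 20 were unchanged, and of 200 called against YFP- samples 11 were. Exon lengths and positions came from GENCODE M21 on GRCm38 (55141 of 55487 identifiers). Named were all 10 members, Bcl3, from each pathway list the 3 largest called rises and falls of each comparison, and the 2 genes most like each member. A list gene named in 1 comparison can be called in the others too. The members and lists were chosen with earlier results of these data known. Of the alternatives (other scalings, filters, pseudocount, weights, thresholds, a block and libraries left out) 17 were planned and 2, leaving out the YFP+ m3 or the unstimulated m4 library, were chosen after seeing the data. The table has 0 columns of other samples. Other steps used Python 3.11.15, pandas 2.3.3, numpy 2.4.6 and matplotlib 3.10.9.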

Additional observations from a re-analysis of the deposited data

Results flagged for a closer look

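In 4 of the 30 sets of 4 log2 CPM values (10 members in 3 groups), 1 library stood apart from the other 3 by more than Dixon's 95% critical value, where about 1.5 sets would do so by chance. The ratios of gap to range below are those of the log2 values, while the levels beside them are in CPM. Nfkbia in the unstimulated m4 library was at 266 CPM against 188 to 193 CPM (ratio of gap to range 0.925), and that library also held the lowest unstimulated Rela level. Nfkbia in the YFP- m3 library was at 1100.4 CPM against 1544 to 1581 CPM (0.933). Nfkbib in the unstimulated m2 library was at 109 CPM against 99.3 to 100.3 CPM (0.885). Nfkbid in the YFP+ m3 library was at 80.6 CPM against 137 to 151 CPM (0.84). In the m3 libraries 30.3% (YFP-) and 29.8% (YFP+) of reads were ribosomal RNA-like, the highest share of each group. With those features left out of the totals, 9, 8 and 6 members were called in the 3 comparisons.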

How the results depend on the processing

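Counts of all called genes went from 6321 to 3239 (YFP- over unstimulated) and from 7522 to 4547 (YFP+ over unstimulated) when calls also needed a log2 change of 1 or more. For YFP+ over YFP- they went from 2691 to 1583 without the filter, 1466 at an adjusted p under 0.01 and 1256 with that fold threshold, and ranged from 1571 to 2397 when libraries were left out. Members called in that comparison went from 5 to 2, 3 and 1 under the same settings and ranged from 2 to 5 when libraries were left out (2 without f2, 3 without m2 and 3 without m4). The cause was not tested, except that both stricter thresholds call fewer genes by construction. Members called against unstimulated samples numbered 9 or 10 for YFP- and 8 or 9 for YFP+ samples under all alternatives. Values that turned sign were Bcl3 in YFP+ over unstimulated (0.028 with quantile normalization) and, in YFP+ over YFP-, Nfkb1 (-0.040 without m4, in a range of -0.040 to 0.21 when libraries were left out) and Rel (0.070 with median centring and 0.0055 with voom weights). Over the alternatives, 514 of 550 member values and 1058 of 1137 values of the other named genes kept their direction and side of the threshold, and 38 of 62 results of those other genes did so throughout. The samples share only a label: deviations of same-labelled samples from their group means correlated at -0.06 to 0.37, and the best match was the own label in 1, 2 and 3 of 4 cases. With the replicate label as a block, 6682, 7774 and 3098 genes and 9, 9 and 6 members were called in the 3 comparisons. With the block, Rela was called lower in YFP+ than in YFP- samples (log2 -0.97, adjusted p = 0.0113), Nfkbie was called higher in YFP+ than in unstimulated samples (log2 0.64, adjusted p = 0.0297), and Tnf was no longer called between the fractions (log2 0.55, adjusted p = 0.054).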
